A study of Mus musculus with 4 samples.

Results

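The cells described here are ovarian macrophages that carried transcripts of the chemokine receptor Ccr2 together with MHC class II genes, called Ccr2+ MHC-II macrophages below. They were picked cell by cell from raw UMI counts, a UMI being 1 counted RNA molecule. A member had at least 2 UMIs of Ccr2, 20 of Lyz2, 10 of Apoe and 10 of H2-Ab1. It had at most 1 UMI of Cd209a and 2 of Arg1, fewer than 8 of Fcgr4, and fewer than 20 of S100a8 and S100a9 together. The rule was applied to barcodes with at least 500 genes, at least 1000 UMIs, at most 10% mitochondrial UMIs, and a leading hashtag of at least 10 counts and 3 times the next one. It found 819 members among 6281 kept cells, 559 of 4100 at 15 months and 260 of 2181 at 3 months. Of the 819, 29 fell short of 5000 UMIs and were left out wherever cells were thinned to that depth.

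The cells were sorted as CD45+CD11b+ from ovaries of wild-type virgin C57BL/6J females labelled 15 months and 3 months, with harvest ages of 14 to 17 and 2 to 3 months in the protocol. Each age gave 1 Chromium 3' library that held 3 hashtag pools, and the pool is the replicate in every mean and test below. The protocol lists 5 animals at 15 months, with 1 pool made from a single mouse that is not identified, and 6 animals at 3 months, whereas the design text gives pairs of mice throughout. No allele, drug or surgery was used in either group. Age and library cannot be told apart, so each p-value measures the spread between pools inside a library.

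Monocytes leave the bone marrow and follow the ligand Ccl2 into tissues through the receptor Ccr2, and in tissue many of them lose Ly6c2, gain MHC class II and become macrophages. In the mouse ovary macrophages clear dying follicles and corpora lutea. Lyz2 encodes lysozyme, Apoe a lipid carrier, H2-Ab1 a chain of an MHC class II molecule, and Ms4a6c and Aif1 are genes of monocytes and macrophages.

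The hashtag oligos are shown because they alone assign each cell to its pool. They were the same in both libraries, and each is printed 5′ to 3′ in lower case with no part marked.
B0301, replicate 1: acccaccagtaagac
B0302, replicate 2: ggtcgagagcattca
B0303, replicate 3: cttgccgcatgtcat

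Both libraries together held 8074 barcodes, 4939 at 15 months and 3135 at 3 months, with 45060166 and 27277073 gene UMIs. Members had a median of 9456 to 10524 UMIs in the 15-month pools and 8490.5 to 9634 in the 3-month pools. Of all barcodes 3 occurred in both libraries, and none of them was a member. Scrublet marked 1 of the 8074 barcodes as a doublet, so the caller had not worked. Possible doublets stayed among the members, and leaving out cells with markers of another lineage was run as an alternative only. Haemoglobin RNA differed between the libraries. A UMI of Hbb-bs was present in 8.89%, 12.3% and 15.8% of members in 15-month replicates 1 to 3, against 94.6%, 97.1% and 92.9% in the 3-month pools. Single cells held most of it in some pools: 1 member had 2992 of the 3043 Hbb-bs UMIs in 15-month replicate 2, and 1 had 4038 of the 4614 in 3-month replicate 3. The 4 red cell genes tested all had negative log2 ratios of 15 over 3 months in members, with a median of -1.99 and none past the threshold. That median was -6.48 without 15-month replicate 2 and -0.20 without 3-month replicate 3, where Hbb-bt had a log2 ratio of 0.49.

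The values that chose the members are a description. Members had 2 to 34 UMIs of Ccr2 (median 6), 20 to 2070 of Lyz2 (median 111), 10 to 1971 of Apoe (median 180) and 10 to 301 of H2-Ab1 (median 83). At the Ccr2 limit, 137 members had exactly 2 UMIs, and 150 cells that met every other criterion had 1. In all, 737 cells failed on Ccr2 alone, 191 on H2-Ab1 alone, 157 on Apoe alone and 104 on Fcgr4 alone. Free RNA in droplets was gauged in 236 B cells (at least 5 UMIs of Cd79a and fewer than 20 of Lyz2). They numbered 72, 92 and 54 in the 15-month pools and 4, 5 and 9 in the 3-month pools. The gauge thus rests mostly on the 15-month library. RNA made by the B cells themselves was not told apart from free RNA. A UMI of Ccr2 was found in 4.24% of these B cells and at least 2 in 1.69%. At least 10 UMIs of Apoe were found in 17.4% of B cells, at a median of 6367.5 UMIs per B cell and 10002 per member.

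Markers that the rule did not use placed the members among macrophages or monocytes. Csf1r, the receptor for the growth factor that macrophages depend on, had a UMI in 98.2% of members, Ms4a6c in 98.0% and Aif1 in 98.2%. The macrophage genes Cd68, Fcgr1 and Adgre1 had a UMI in 95.1%, 80.0% and 79.5% of members. C1qa, a subunit of the complement component C1q, had one in 77.7%, and the efferocytosis receptor Mertk in 31.3%. B cells gave the background, from free RNA or their own. A UMI of Ms4a6c was found in 30.1% of B cells, C1qa in 23.3%, Cd68 in 16.5% and Adgre1 in 15.7%. Aif1 was found in 8.47%, Csf1r in 6.36%, Fcgr1 in 0.847% and Mertk in 0.424% of B cells. Dendritic cell genes varied. Flt3 had a UMI in 2.93% of members and Zbtb46 in 2.08%, against 1.69% and 0.847% of B cells. Clec10a had one in 34.9% of members, Wdfy4 in 34.3%, Itgax in 22.8% and Cadm1 in 20.5%, against 2.97%, 44.1%, 5.51% and 5.93% of B cells. The monocyte gene Ly6c2 had a UMI in 28.0% of members and 7.203% of B cells. The macrophage part of the label held on these markers against B cells, which cannot separate macrophages from monocytes. At least 3 of 10 macrophage markers were found in 98.7% of members and in 91.3% of H2-Ab1-low monocytes, a class defined below. At least 3 of 7 classical monocyte markers were found in 29.5% of members. MHC class II was imposed by the rule through H2-Ab1, and descent from monocytes was not measured.

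Other cell types left small amounts of RNA in the members. The 4 fibroblast markers summed to 94.5 to 332 CPM (UMIs of the pool's members scaled to 1 common total) over the 15-month pools and 2.64 to 402 CPM over the 3-month pools, with 3 or more of them in 32 members. The 4 theca or luteal markers summed to 24.5 to 40.3 and 26.4 to 249 CPM, the 4 B cell markers to 189 to 306 and 140 to 180 CPM. Of the 4 mast cell or basophil markers, 2 were at 0. Without cells that had 3 or more markers of another lineage, 760 members were left.

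The members were set beside 3 classes defined in the same way. Ccr2-zero macrophages met every criterion but had no Ccr2 UMI (587 cells). H2-Ab1-low monocytes had Ccr2, Lyz2 and at least 5 UMIs of Ly6c2 with at most 3 of H2-Ab1 (103 cells, in 5 pools, with 0 of 977 cells in 3-month replicate 3, which allows a share of up to 0.307%). Cd209a cells had at least 4 UMIs of Cd209a with H2-Ab1 (378 cells), the pattern of type 2 dendritic cells. No member was in any of them. Differences between classes are given without a test because the classes were cut from the same cells.

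On 10 macrophage markers that no rule used, C1qa among them, the members lay between monocytes and Ccr2-zero macrophages. These markers summed to 2034 CPM over all monocytes, 12004 CPM over all members and 16656 CPM over all Ccr2-zero macrophages. The pools of these classes did not overlap for that sum. Ly6c2, a surface antigen of classical monocytes that also served to define the monocyte class, averaged 85.7 CPM over the 6 member pools, against 5.91 CPM over 6 pools of Ccr2-zero macrophages and 1580 CPM over 5 pools of monocytes. Plac8, a gene of monocytes and granulocytes, averaged 514 CPM in members and 104 CPM in Ccr2-zero macrophages. C1qa averaged 3332 CPM in members and 25.1 CPM in monocytes, a ratio of 133. In each of these 3 genes every member pool lay apart from every pool of the class it is set against.

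Against Ccr2-zero macrophages, and leaving Ccr2 aside, the largest ratios upward were in Ly6c2 (14.5-fold), the chitinase-like gene Chil3 (7.28-fold) and Retnla (7.03-fold), which encodes the secreted protein RELM-alpha. The calcium-binding protein gene S100a4 was 4.55-fold higher and the matrix glycoprotein gene Thbs1 2.82-fold higher. Lower in members were the iron exporter Slc40a1 (15.4 CPM in members and 158 CPM in Ccr2-zero macrophages), Gpnmb (64.6 and 340 CPM), the chemokine Ccl8 (23.05 and 127 CPM) and the adhesion molecule Vcam1 (104 and 407 CPM). Retnla was held by few cells, as described below.

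Against Cd209a cells the members were higher in Lyz1 (60.2-fold), the lipase Pla2g7 (27.6-fold), Ms4a7 (17.7-fold) and the lipoprotein lipase Lpl (17.5-fold). Lyz1 is nearly identical to Lyz2, which the rule required of members and not of Cd209a cells. The part of that requirement in the Lyz1 ratio was not tested. The members were lower in the chemokine Ccl17 (5.23 CPM in members and 533 CPM in Cd209a cells) and in Flt3 (5.84 and 59.2 CPM). H2-Oa, a modulator of MHC class II loading, stood at 7.83 and 270 CPM. Cd74, the class II invariant chain, was at 11856, 12893 and 12786 CPM in the 15-month member pools and 17906, 12150 and 15730 CPM in the 3-month member pools. In Cd209a cells it was at 19502 to 24062 and 25104 to 25229 CPM. The pools of the classes did not overlap for Cd74.

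**Figure D1:**
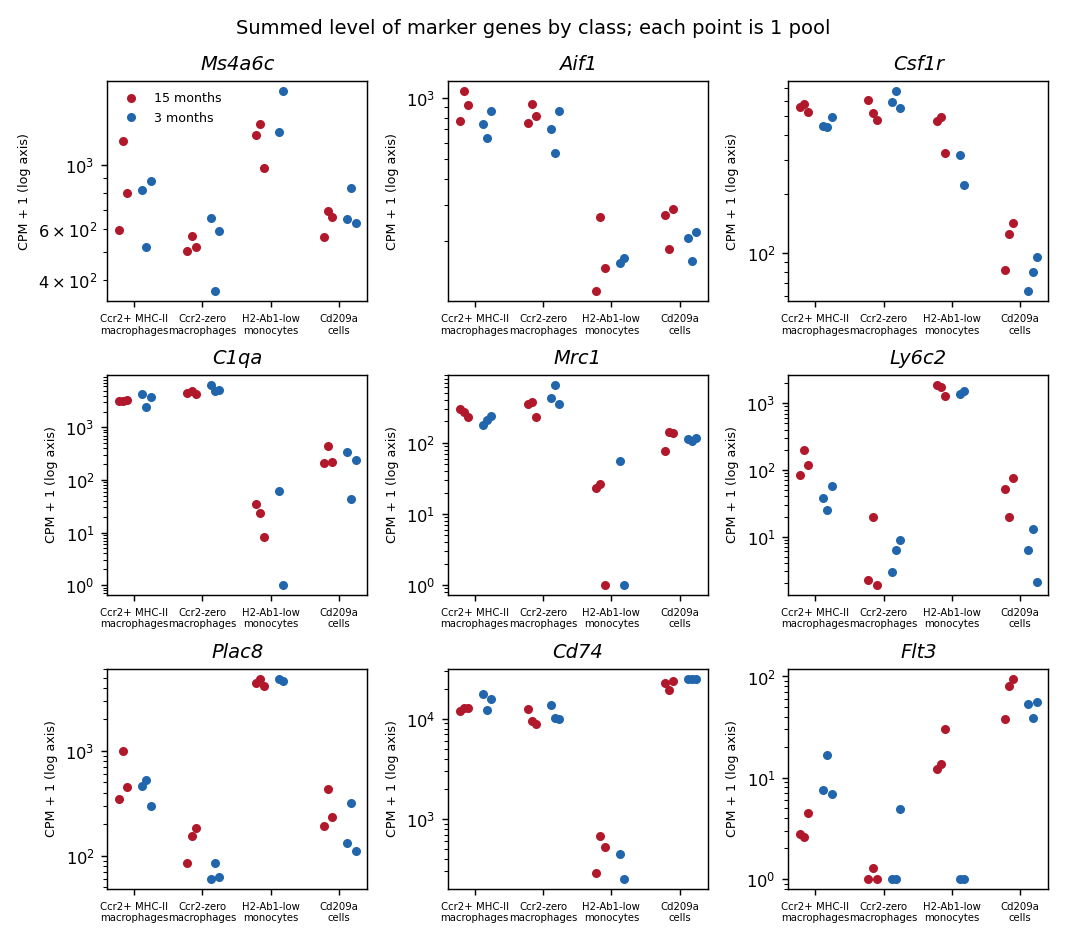
Level of 9 genes in 4 cell classes, as CPM + 1 on a log axis, with 1 point for each pool, red for 15 months and blue for 3 months (H2-Ab1-low monocytes have 5 pools). C1qa separates the members from monocytes, Ly6c2 and Plac8 separate them from Ccr2-zero macrophages, and Flt3 is highest in Cd209a cells.

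The members were not uniform, and C1qa ordered them. With each of 790 members thinned to 5000 UMIs, 193 had no C1qa UMI, 115 had 1 to 9, 328 had 10 to 29 and 154 had 30 or more. Plac8 averaged 13.5, 5.04, 1.20 and 0.701 UMIs per cell in these bins. Ly6c2 averaged 2.22, 1.07, 0.256 and 0.149, and Chil3 2.55, 1.19, 0.329 and 0.117. Genes of monocytes thus were lowest where C1q was highest. Thbs1 had the same order, with 3.94, 2.68, 1.42 and 0.688 UMIs, as had Ccr2 itself, with 4.58, 3.95, 2.95 and 2.79 UMIs.

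Some genes of tissue macrophages ran the other way. The mannose receptor gene Mrc1 averaged 0.430, 0.774, 1.54 and 1.66 UMIs over the same bins. Ms4a7 averaged 1.47, 2.28, 3.87 and 5.47 UMIs, the chemokine Pf4 0.710, 1.62, 3.65 and 4.58, and the transcription factor Maf 0.927, 1.22, 1.64 and 2.12. Mrc1, Ms4a7, Pf4 and Maf were among the genes most correlated with C1qa, so their rise is no independent support. Adgre1 rose too, with 0.731, 0.887, 1.23 and 1.64 UMIs. Fcgr1 did not, with 1.22, 1.05, 1.16 and 1.17, and Mertk averaged 0.0984, 0.139, 0.259 and 0.214. Cd83 averaged 1.75, 2.37, 3.22 and 3.60 UMIs. Of the MHC class II genes, H2-Ab1 averaged 35.3, 40.6, 39.4 and 47.6 UMIs and Cd74 69.5, 73.7, 73.8 and 84.5 UMIs.

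Over the 790 cells, the rank correlation with C1qa was 0.871 for C1qb, 0.860 for C1qc, 0.488 for Ms4a7, 0.474 for the tetraspanin Cd81 and 0.437 for Pf4. It was -0.567 for Plac8, -0.395 for Ly6c2 and -0.392 for Chil3. The cells share 2 libraries, the genes share each cell's fixed depth, and 2656 genes with a UMI in at least 20% of cells were ranked after the values had been seen, so no p is given. The order was present inside every pool for Plac8. It averaged 6.19, 12.4 and 9.58 UMIs in 15-month cells with under 10 C1qa UMIs, against 0.214, 2.05 and 0.289 in those with 10 or more. At 3 months it averaged 11.2, 9.08 and 5.18 against 0.317, 0.125 and 0.487.

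**Figure D2:**
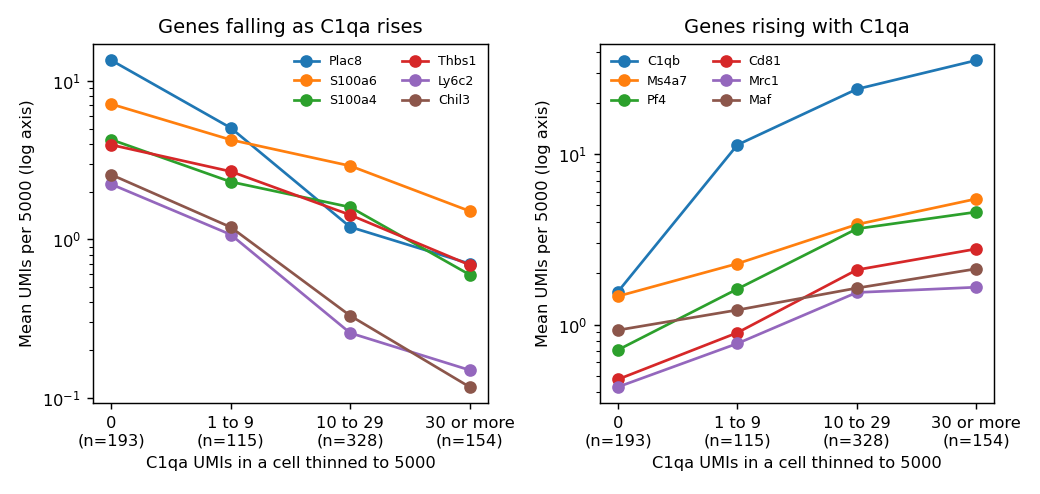
Mean UMIs per cell, on a log axis, in 790 members thinned to 5000 UMIs, by the number of C1qa UMIs in the cell. Plac8 ends at 0.701 UMIs where C1qa is 30 or more and starts at 13.5 where it is 0, while Mrc1 ends at 1.66 and starts at 0.430.

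The share of members without C1qa differed between pools more than between ages, whereas the share with Ly6c2 did not overlap between ages. Members without a C1qa UMI made up 15.9%, 31.1% and 20.3% of thinned members in the 15-month pools and 9.26%, 37.9% and 17.7% in the 3-month pools. The means were 22.5 ± 7.84% and 21.6 ± 14.7% (SD, n = 3 pools each), and a two-sided exact permutation test gave p = 1. A UMI of Ly6c2 was found in 13.6%, 31.7% and 21.1% of thinned members at 15 months and 7.41%, 3.45% and 12.8% at 3 months. These pools did not overlap, with p = 0.1 by exact permutation, below which a test of 3 pools per age cannot go.

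Some members were in cycle. A UMI of at least 3 of 16 cell cycle genes was found in 15.9%, 14.5% and 17.3% of thinned members at 15 months and 14.8%, 20.7% and 14.6% at 3 months. The means were 15.9 ± 1.41% and 16.7 ± 3.45%, with an exact two-sided permutation p of 0.8. Before thinning the shares were 26.7%, 28.0% and 30.9% at 15 months and 21.4%, 23.5% and 25.3% at 3 months. Over all thinned cells of a class, the share was 15.3% in members, 16.0% in Ccr2-zero macrophages and 21.5% in Cd209a cells. It was 1.01% in monocytes and 2.45% in B cells. Mki67 alone had a UMI in 15.9%, 11.7% and 12.8% of thinned members at 15 months. At 3 months its shares were 11.1%, 6.90% and 7.32%, without overlap between ages, and this difference was not tested.

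The first age comparison asked whether members took up another share of the sorted cells. They were 45 of 767, 375 of 2437 and 139 of 896 kept cells at 15 months, or 5.87% (Wilson 95% interval 4.41 to 7.76), 15.4% (14.0 to 16.9) and 15.5% (13.3 to 18.0). At 3 months they were 56 of 725, 34 of 479 and 170 of 977, or 7.72% (6.00 to 9.90), 7.10% (5.12 to 9.76) and 17.4% (15.2 to 19.9). Each age had pools with a low and a high share, and the intervals cover counting error only. The means were 12.3 ± 5.53% and 10.7 ± 5.78% (SD, n = 3 pools each), a difference of 1.52 percentage points with an exact two-sided permutation p of 1. The difference was -0.051 points without 15-month replicate 2, -0.113 without 15-month replicate 3 and -0.306 without 3-month replicate 2. It was 4.71 points without 15-month replicate 1, 4.84 without 3-month replicate 3 and 0.00691 without 3-month replicate 1.

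The rule counts raw UMIs, so deeper cells pass it more easily. Kept cells of at least 5000 UMIs were therefore thinned to that depth, and shallower cells were left out. This left 412 of 767, 1766 of 2437 and 575 of 896 kept cells in the 15-month pools. In the 3-month pools it left 452 of 725, 354 of 479 and 684 of 977. Among these cells the share was 6.07%, 15.9% and 15.0% at 15 months and 5.09%, 3.11% and 12.9% at 3 months. The difference was then 5.29 percentage points (exact permutation p = 0.2). A share in a sort says nothing of cell numbers in the ovary.

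**Figure D3:**
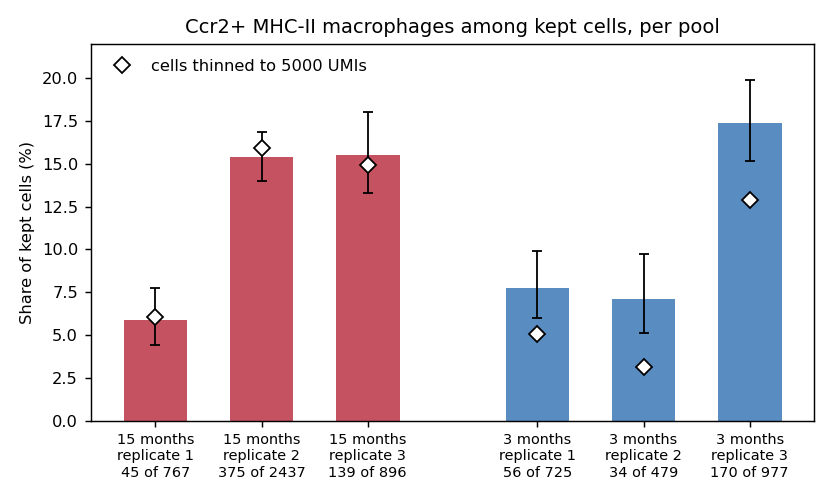
Share of kept cells that were members, in percent, for the 3 pools of 15 months and the 3 pools of 3 months, with Wilson 95% intervals. White diamonds are for kept cells of at least 5000 UMIs thinned to that depth, without shallower cells. Shares run from 5.87% to 15.5% at 15 months and from 7.10% to 17.4% at 3 months.

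The second age comparison asked which genes differed inside the members. UMIs were summed over the members of each pool and tested with edgeR's quasi-likelihood test, adjusted over all 7635 genes, at a threshold of 0.05. Genes are named from those past the threshold and the 3 of each list with the smallest p, and other well-known members of a list are named after their values had been seen. Levels are CPM scaled by TMM, and ratios are log2 of 15 over 3 months with their standard error. In this comparison 0 genes were higher (0.0% of those tested) and 1 was lower (0.0131%), while 609 had an unadjusted p under 0.05. With DESeq2, 3 genes were higher and 8 lower, and 6662 were left with no adjusted p. Without 3-month replicate 2, edgeR gave 4 higher and 23 lower, and without 15-month replicate 1 or 3-month replicate 1 it gave 0 calls. For scale, pools did not overlap for 7.52% of all genes in the direction of higher at 15 months and for 7.14% in the direction of lower.

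Cd83 was the gene past the threshold. It encodes a surface protein of activated antigen-presenting cells that stabilises MHC class II and Cd86 at the membrane, and lies on chromosome 13 from 43784775 to 43803132 (mm10, plus strand). Cd83 stood at 426, 379 and 420 CPM in the 15-month pools and 947, 954 and 796 CPM in the 3-month pools. The 15-month pools were all below the 3-month pools, with means of 408 ± 25.5 and 899 ± 88.9 CPM (SD, n = 3 pools each). Cd83 fell by 1.14 ± 0.12 on the log2 scale (edgeR adjusted p = 0.0228).

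The Cd83 values were spread over many cells and over the C1qa range. A UMI of Cd83 was found in 82.2%, 78.7% and 77.7% of members at 15 months and 91.1%, 79.4% and 89.4% at 3 months, and no cell held more than 8.01% of a pool's Cd83 UMIs. In thinned cells with under 10 C1qa UMIs it averaged 1.31, 1.42 and 1.74 UMIs at 15 months and 4.23, 3.46 and 3.35 at 3 months. In those with 10 or more it averaged 3.21, 2.38 and 2.59 at 15 months and 5.51, 5.94 and 4.47 at 3 months. In both strata the pools of the ages did not overlap.

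The Cd83 call depended on single pools. Leaving out each pool in turn gave log2 ratios from -1.22 to -1.08. The edgeR adjusted p was 0.132, 0.0735 and 0.164 without 15-month replicates 1, 2 and 3. It was 0.180 without 3-month replicate 1, 0.00917 without replicate 2 and 0.0496 without replicate 3. With cells of at least 1 Ccr2 UMI the log2 ratio was -0.83 (edgeR adjusted p = 0.160). With the replicate number as a block it was -1.13 (edgeR adjusted p = 0.0564).

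Cd83 in the other classes had the same sign, and its age effect in members did not differ from theirs past the threshold. The log2 ratio was -0.83 ± 0.16 in Ccr2-zero macrophages (edgeR adjusted p = 0.0577), -0.95 ± 0.34 in monocytes (0.252) and -0.49 ± 0.19 in Cd209a cells (0.468). The difference between members and each class was -0.27 ± 0.15, -0.27 ± 0.35 and -0.60 ± 0.21, with unadjusted p of 0.108, 0.445 and 0.0152 in edgeR and adjusted p of 1, 0.983 and 1.00. These classes share the libraries and pools of the members.

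Immediate early genes, which cells switch on within minutes of a stimulus and also during enzymatic dissociation, were measured with heat shock genes as 1 list. Of its 22 genes 20 had a negative and 2 a positive log2 ratio, with a median of -0.39 against -0.00122 over all genes. None passed the threshold, and for 7 of 22 the 15-month pools lay below the 3-month pools without overlap. The list was drawn up with earlier results of these data known, so its count is no independent support. The median was -0.57 without 3-month replicate 2.

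Ier2, an early response gene, stood at 368, 336 and 316 CPM at 15 months and 572, 648 and 580 CPM at 3 months, a log2 ratio of -0.82 ± 0.12 (edgeR adjusted p = 0.0755). Btg2, an antiproliferative early gene, stood at 848, 939 and 845 CPM and at 1621, 1264 and 1745 CPM at these ages, a log2 ratio of -0.82 ± 0.14 (0.109). Fos, a subunit of the transcription factor AP-1, stood at 2854, 2397 and 2577 CPM at 15 months and 3992, 3374 and 4195 CPM at 3 months, a log2 ratio of -0.56 ± 0.12 (0.322). In each of these 3 genes the pools did not overlap. Among the heat shock genes Hspa1a stood at 252 ± 152 and 511 ± 283 CPM with overlapping pools.

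The same list had a median log2 ratio of -0.51 in Ccr2-zero macrophages, with 21 of 22 genes negative. It was -0.15 in Cd209a cells, with 14 of 22 negative, and 0.42 in monocytes, with 7 of 21 negative. The difference of the classes' medians was not tested. Ovaries were digested with collagenase IV and DNase I at warm temperature, and the part of dissociation in these values was not tested.

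NF-kB targets and inflammatory cytokines were mostly negative in members. Of 15 measured genes 11 were negative and 4 positive, with a median of -0.29, and none passed the threshold. Pools did not overlap for 1 of them, Cd14, the co-receptor for lipopolysaccharide, at 837 ± 51.9 CPM at 15 months and 1098 ± 105 CPM at 3 months (log2 ratio -0.39 ± 0.12, edgeR adjusted p = 0.470). Il1b, which encodes interleukin 1 beta, stood at 1393, 1736 and 1124 CPM at 15 months and 3262, 1623 and 2115 CPM at 3 months, with overlap (-0.72 ± 0.24, adjusted p = 0.484). Tnf stood at 41.8 ± 7.06 and 43.7 ± 19.3 CPM. The list's median was -0.29 in Ccr2-zero macrophages, with 10 of 15 genes negative. It was -0.13 in Cd209a cells, with 8 of 12 negative, and 0.21 in monocytes, with 3 of 9 negative. In Ccr2-zero macrophages Il1b had a log2 ratio of -1.26 ± 0.21 (edgeR adjusted p = 0.0334) and Cd14 one of -0.91 ± 0.16 (adjusted p = 0.0403).

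Monocyte genes were mostly positive. Of 15 measured genes 14 were positive and 1 negative, with a median log2 ratio of 0.46, and none passed the threshold. For 4 of 15 the 15-month pools lay above the 3-month pools. The other classes had positive medians too. The list's median was 0.31 in Ccr2-zero macrophages, with 10 of 14 genes positive, and 0.27 in monocytes, with 10 of 16 positive. In Cd209a cells it was 0.52, with 6 of 9 positive. The difference of these medians was not tested. In members Chil3 stood at 175, 235 and 68.2 CPM at 15 months and 17.2, 10.5 and 17.5 CPM at 3 months, a log2 ratio of 3.30 ± 0.47 (edgeR adjusted p = 0.0653). A Chil3 UMI was found in 20%, 41.3% and 28.1% of members at 15 months and 3.57%, 5.88% and 9.41% at 3 months. Chil3 is nearly identical to other chitinase-like genes, and how reads shared with them were counted was not examined.

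Ly6c2 stood at 83.8, 196 and 116 CPM at 15 months and 39.7, 23.7 and 58.8 CPM at 3 months (log2 ratio 1.6 ± 0.34, edgeR adjusted p = 0.322). Thbs1 stood at 368 ± 103 and 210 ± 47.5 CPM (0.80 ± 0.22, adjusted p = 0.410), and haptoglobin, Hp, at 65.4 ± 18.9 and 29.2 ± 17.6 CPM (1.59 ± 0.42, 0.406). In these genes too the pools did not overlap. Plac8, at 344, 990 and 455 CPM against 490, 527 and 313 CPM, and Ms4a6c, at 868 ± 311 against 770 ± 222 CPM, overlapped.

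Whether Chil3 passed the threshold depended on which cells and pools were taken. The edgeR adjusted p was 0.0155 in thinned cells, 0.00628 without cycling members and 0.000346 without 15-month replicate 3, against 0.341 without 3-month replicate 1, and DESeq2 gave it no adjusted p. In thinned cells with under 10 C1qa UMIs, Chil3 averaged 2.69, 3.04 and 0.977 UMIs at 15 months and 0.615, 0.0769 and 0.255 at 3 months. In those with 10 or more it averaged 0.0357, 0.510 and 0.2 at 15 months and 0, 0 and 0.0708 at 3 months. There the pools overlapped, at levels near the floor. Chil3 had a log2 ratio of 3.72 ± 0.61 in Ccr2-zero macrophages (edgeR adjusted p = 0.0334) and 1.75 ± 0.24 in monocytes (adjusted p = 0.000139).

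**Figure D4:**
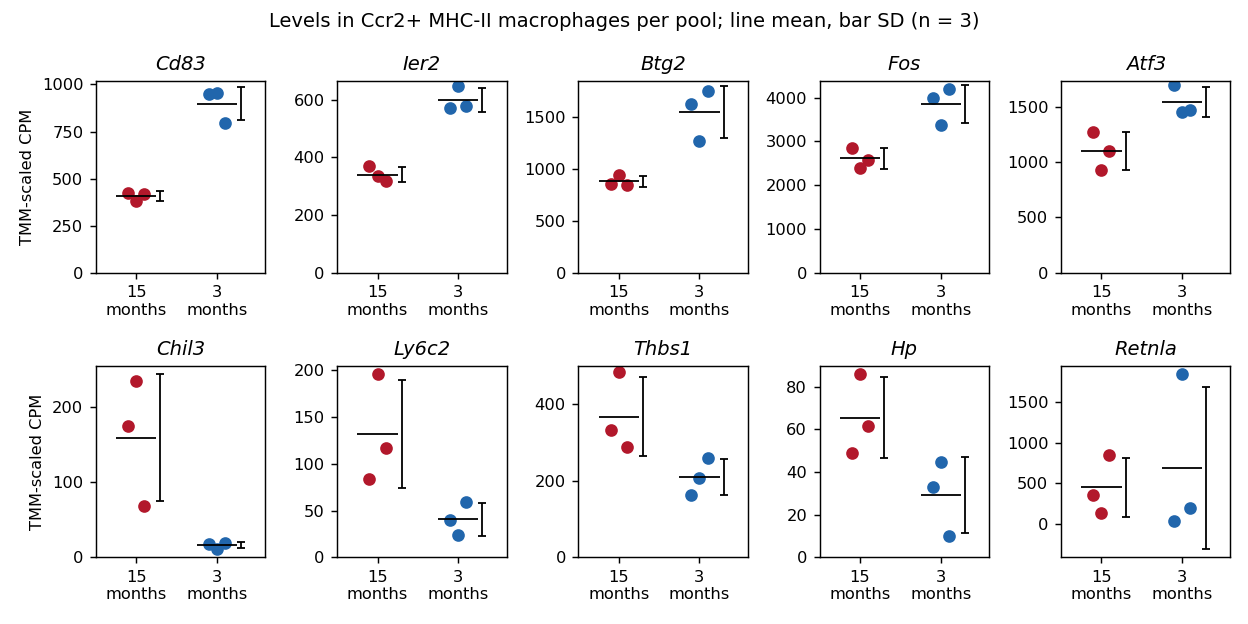
TMM-scaled CPM of 10 genes in members, with 1 point for each pool, 15 months left of 3 months in each panel, a line at the mean and a bar for the SD (n = 3 pools each). Cd83 averages 408 CPM at 15 months and 899 CPM at 3 months, and the ages do not overlap for the panels other than Retnla.

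MHC class II, which the rule drew on through H2-Ab1, had no gene past the threshold. Of 11 other measured genes 4 were positive and 7 negative, with a median log2 ratio of -0.13, and pools overlapped for each of them. The median was 0.0375 without 15-month replicate 3. Cd74 stood at 12482 ± 568 CPM at 15 months and 15886 ± 3487 CPM at 3 months (log2 ratio -0.35 ± 0.15, edgeR adjusted p = 0.594). Cd86, the costimulatory ligand, stood at 105 ± 23.1 and 115 ± 32.1 CPM, and the class II transactivator Ciita at 91.8 ± 10.4 and 87.9 ± 12.2 CPM. MHC class I genes had 8 of 12 positive, a median of 0.15 (-0.11 without 15-month replicate 2) and none past the threshold. Nlrc5, their transactivator, stood at 14.9 ± 2.41 and 6.88 ± 1.604 CPM (1.04 ± 0.32, edgeR adjusted p = 0.472).

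No resident macrophage or complement gene passed the threshold. Of 16 measured resident genes 11 were positive and 5 negative with a median of 0.10, and pools did not overlap for 4, all higher. The selenium carrier Selenop stood at 1202 ± 58.3 CPM at 15 months and 883 ± 199 CPM at 3 months (log2 ratio 0.44 ± 0.15, edgeR adjusted p = 0.495). Cbr2, a carbonyl reductase, stood at 32.8 ± 6.32 and 14.7 ± 8.98 CPM without overlap (0.87 ± 0.32, adjusted p = 0.519). Csf1r stood at 552 ± 23.1 and 477 ± 42.9 CPM. C1qa stood at 3179 ± 89.8 and 3626 ± 1088 CPM, with overlap. Of 12 complement genes 8 were positive, with a median of 0.06. C4b, a form of component C4, stood at 14.3 ± 4.89 CPM at 15 months and 3.74 ± 2.77 CPM at 3 months without overlap (2.33 ± 0.51, edgeR adjusted p = 0.355). C3 stood at 47.3 ± 7.69 and 28.9 ± 9.25 CPM (0.85 ± 0.22, adjusted p = 0.406).

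Lipid-associated macrophage genes had 12 of 16 positive with a median of 0.25, which is within the SD of 0.60 between pools. Gpnmb stood at 255, 36.8 and 40.1 CPM at 15 months and 12.1, 34.2 and 9.61 CPM at 3 months (log2 ratio 2.65 ± 0.90, edgeR adjusted p = 0.486). Its highest value came from 15-month replicate 1. Spp1, which encodes osteopontin, was at 1028, 127 and 106 CPM and at 381, 348 and 120 CPM at these ages. Trem2, a lipid-sensing receptor, was at 468 ± 154 and 450 ± 82.0 CPM. In Ccr2-zero macrophages the list's median was 0.81, with 16 of 16 genes positive. It was -0.05 in monocytes, with 4 of 8 positive, and 0.01 in Cd209a cells, with 7 of 10 positive. The difference of these medians was not tested.

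Lysosomal genes had 16 of 20 positive with a median of 0.12, none past the threshold and 4 with every 15-month pool above the 3-month pools. Progranulin, Grn, stood at 624 ± 38.4 and 479 ± 65.8 CPM (log2 ratio 0.38 ± 0.13, edgeR adjusted p = 0.495), and Lamp1, a membrane protein of lysosomes, at 833 ± 60.8 and 742 ± 28.2 CPM. Of 14 receptors for phagocytosis 11 were positive with a median of 0.21. Lrp1, a scavenger and clearance receptor, stood at 224 ± 23.2 and 180 ± 16.3 CPM (0.33 ± 0.14, adjusted p = 0.579), and Mertk at 49.4 ± 10.9 and 34.97 ± 7.87 CPM with overlap.

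Chemokines had 5 of 15 positive and a median of -0.18, which was 0.16 without 3-month replicate 2. Ccl8 stood at 24.4, 52.1 and 33.8 CPM at 15 months and 22.4, 0 and 6.78 CPM at 3 months (log2 ratio 2.09 ± 0.52, edgeR adjusted p = 0.406). Cxcl2, a neutrophil attractant, stood at 1442 ± 361 and 2774 ± 988 CPM (-0.94 ± 0.26, adjusted p = 0.410) with overlap, and Ccl2, the ligand of Ccr2, at 429 ± 43.3 and 594 ± 250 CPM. Type I interferon genes had 9 of 22 positive and a median of -0.11. Isg15, a ubiquitin-like protein of that response, stood at 89.6 ± 45.0 and 90.0 ± 48.2 CPM.

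Genes of alternative activation split in sign, with 5 of 10 positive and a median of 0.05. Beside Chil3, Ear2 stood at 40.2, 28.96 and 24.6 CPM at 15 months and 70.7, 419 and 55.4 CPM at 3 months (log2 ratio -2.44 ± 0.69, edgeR adjusted p = 0.413). Mgl2, a lectin of macrophages and dendritic cells, stood at 132 ± 79.9 and 292 ± 114 CPM with overlap (-1.21 ± 0.38, adjusted p = 0.484). The matrix gene Mmp13 stood at 9.15 ± 7.43 and 45.8 ± 19.8 CPM without overlap (-1.94 ± 0.58, adjusted p = 0.467), in a list with 9 of 14 positive and a median of 0.19 (-0.0306 without 15-month replicate 3).

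Among senescence and p53 genes 6 of 13 were positive, with a median of -0.15 (0.24 without 15-month replicate 3) and none past the threshold. Cdkn1a, which encodes the cell cycle inhibitor p21, stood at 320 ± 74.0 and 482 ± 162 CPM (log2 ratio -0.57 ± 0.24, edgeR adjusted p = 0.581), Plaur at 116 ± 19.5 and 162 ± 22.97 CPM and Gdf15 at 252 ± 75.1 and 146 ± 49.9 CPM. Cell cycle genes had 12 of 16 positive and a median of 0.21, which was -0.14 in thinned cells and -0.12 without members that had 3 or more cycle genes. Ccnb2, a mitotic cyclin, stood at 22.6 ± 4.15 and 11.3 ± 5.47 CPM and Pcna at 60.2 ± 7.05 and 41.4 ± 3.91 CPM, both without overlap, but in thinned cells the log2 ratio of Pcna was -0.0294.

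The remaining lists held no gene past the threshold. Myeloid transcription factors had 8 of 18 positive with a median of -0.03, iron and heme genes 8 of 12 with a median of 0.07, and cytokine receptors 14 of 21 with a median of 0.10 (-0.0224 without 3-month replicate 2). Slc40a1 stood at 10.0 ± 5.19 and 21.9 ± 15.6 CPM, and Il4ra, the receptor chain for interleukin 4, at 64.5 ± 4.22 and 47.5 ± 10.1 CPM without overlap.

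**Figure D5:**
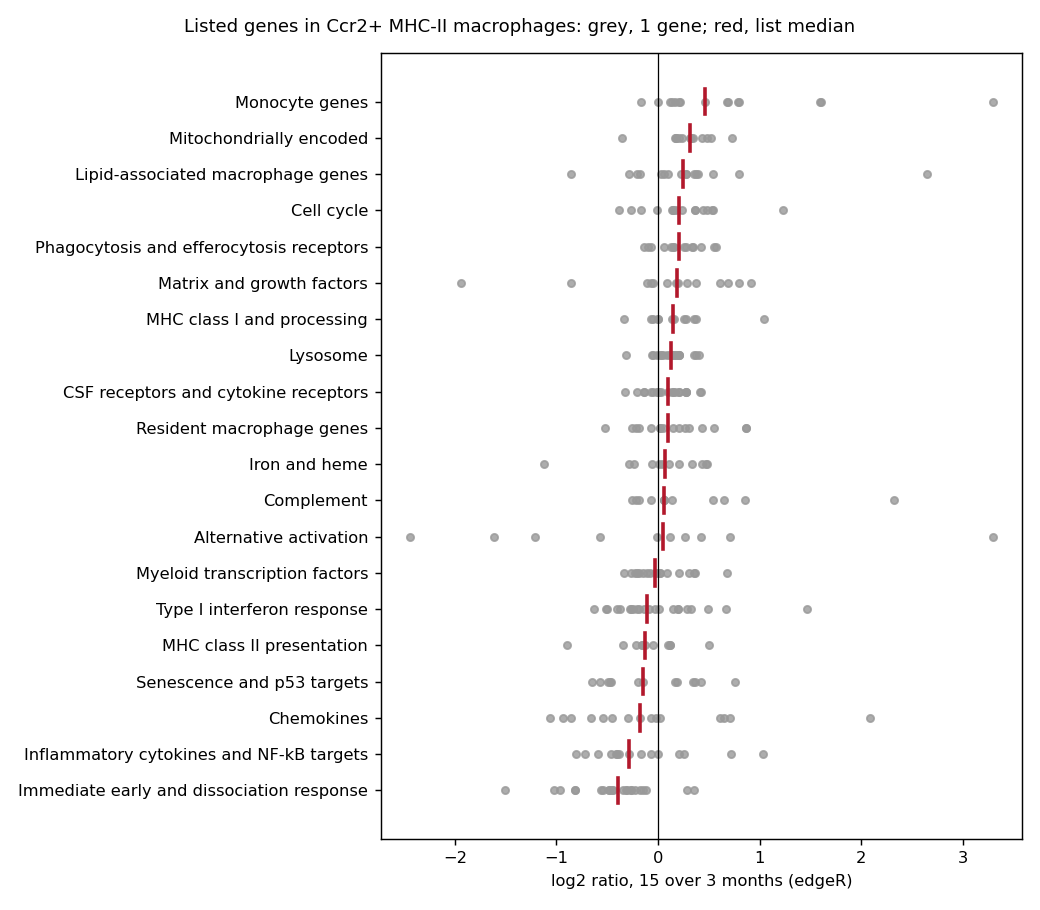
Log2 ratio of 15 over 3 months from edgeR for each measured gene of 20 lists in members (grey points), and the list's median (red bar); the red cell list, with a median of -1.99, is not drawn. Medians of those drawn run from 0.46 for monocyte genes to -0.39 for immediate early and dissociation genes, against -0.00122 over all genes, and 1 gene outside these lists, Cd83, passed the threshold.

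Mitochondrially encoded genes and a ribosomal RNA locus were also compared. Of 13 mitochondrial genes 12 were positive in members, with a median log2 ratio of 0.32. None passed the threshold, and 6 had every 15-month pool above the 3-month pools. The median mitochondrial share per member was 2.49% to 2.69% at 15 months and 1.68% to 2.33% at 3 months. Gm42418, a gene model over a ribosomal RNA locus that is named here after its values were seen, stood at 7582, 7667 and 9890 CPM at 15 months and 1962, 3759 and 2712 CPM at 3 months (log2 ratio 1.58 ± 0.21, edgeR adjusted p = 0.0653). Its log2 ratio was 1.51 in Ccr2-zero macrophages (edgeR adjusted p = 0.0320), 2.40 in monocytes (1.66e-10) and 1.73 in Cd209a cells (0.000288). It thus passed the threshold in each comparison class. The part of these differences in the results above was not tested.

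The last comparison asked for genes whose age effect in members differed from that in another class, with an interaction term in edgeR and the pool as a block. Against Ccr2-zero macrophages 3 of 7747 genes passed the threshold (0.0387%), against monocytes 13 of 5506 (0.236%) and against Cd209a cells 2 of 6229 (0.0321%). Levels in this comparison are CPM unscaled by TMM.

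Il1b and the chemokine Ccl4 had lower age ratios in members than in monocytes. Il1b differed by -1.63 ± 0.27 on the log2 scale (edgeR adjusted p = 0.00167), with ratios of -0.72 in members and 0.88 in monocytes. Ccl4 differed by -4.48 ± 0.76 (adjusted p = 0.00167), with ratios of -0.55 in members and 3.68 in monocytes. Its monocyte pools stood at 56.1, 317 and 572 CPM at 15 months and 15.5 and 44.4 CPM at 3 months. With a pool left out the adjusted p reached 0.410 for Il1b and 0.618 for Ccl4. The monocyte pools held 9 to 49 cells each.

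Klrd1, a lectin-like receptor known from NK cells, differed from Cd209a cells by -2.68 ± 0.35 (edgeR adjusted p = 0.0153). It stood at 3.50, 3.36 and 2.86 CPM in 15-month members and 9.76, 15.9 and 22.5 CPM in 3-month members. In Cd209a cells it stood at 417, 458 and 309 CPM at 15 months and 278, 304 and 334 CPM at 3 months. The member values rest on 2 to 15 UMIs per pool at 15 months and 6 to 42 at 3 months.

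Retnla (chromosome 16 from 48842551 to 48844461, plus strand) differed from Ccr2-zero macrophages by 6.17 ± 0.70 (edgeR adjusted p = 0.0202). It stood at 361, 142 and 852 CPM in 15-month members and 39.0, 1840 and 191 CPM in 3-month members. In Ccr2-zero macrophages it stood at 0, 1.46 and 1.73 CPM at 15 months and 1.91, 367 and 115 CPM at 3 months. Single cells set these levels. A Retnla UMI was found in 4, 10 and 4 members at 15 months and 2, 4 and 5 at 3 months, and 1 member held 1484 of the 1488 UMIs in 15-month replicate 3. Retnla is thus a gene of few, very high members, and its level in a pool follows 1 or a few cells.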

How the data were processed

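Single-cell RNA was counted in 2 libraries of sorted ovarian cells, 1 for each age, with 3 hashtag pools each. The authors deposited raw UMI counts per gene and hashtag and cell barcode. The header of the matrices names Cell Ranger 4.0.0, whereas Cell Ranger 7.0.0 stands in the submitters' processing notes beside FastQC 0.11.4 and the build mm10. Which version made the files is not known. All columns of counts belong to a labelled sample. Of 31053 gene IDs, 31011 were found in GENCODE M21, which gave the coordinates.

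Cells were filtered, assigned to pools and selected as described in the opening, in Python 3.11.15 with scanpy 1.11.5 and scipy 1.17.1. The members, classes and gene lists were chosen with earlier results of these data known. Counts were summed per pool and tested in R 4.3.3 with edgeR 4.0.16 (filterByExpr, TMM, quasi-likelihood test, Benjamini-Hochberg adjustment over all genes tested), and with DESeq2 1.42.0 as an alternative. The edgeR step was tested on simulated data. Single values were compared by exact permutation over the 6 pools. Genes were named where they passed the threshold at 50 CPM or more on average without overlapping pools, where they had 1 of the 3 smallest p of a list, or where they had 1 of the 5 smallest p past the threshold in an interaction; gene models without a name were counted only. Wilson 95% intervals and the limit of 3 counts for a count of 0 cover counting error only. Near-identical genes (Lyz1 and Lyz2, the Ly6, Chil, Hba, Hspa1 and H2 families) may share reads, so their values are uncertain. Some genes are not reported here, though they stay in the counts over all genes and lists.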

Additional observations from a re-analysis of the deposited data

Results flagged for a closer look

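The genes named here had an age effect in Ccr2+ MHC-II macrophages that differed from the age effect in another class by edgeR's interaction term. Values are differences of log2 ratios of 15 over 3 months, members minus the other class.

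Against Ccr2-zero macrophages the difference was 6.17 for Retnla, 7.22 for Hba-a2 and 6.67 for Hbb-bt. With a pool left out in turn, Retnla passed in 4 of 6 fits, and Hba-a2 and Hbb-bt in 2 of 6 each. Against Cd209a cells it was -2.68 for Klrd1, which passed in 4 of 6 such fits, and 8.17 for Hbb-bt, which passed in 5 of 6.

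Against H2-Ab1-low monocytes the difference was -1.63 for Il1b and -4.48 for Ccl4, which passed in 3 of 5 fits each with a pool left out. For Arl5c it was -2.56 and for Fosb -2.68. For the transglutaminase Tgm2 it was 2.02, for the chemokine Cxcl10 -4.87, for Lpl -2.41 and for the serum amyloid gene Saa3 9.004. Of these, Arl5c and Cxcl10 passed in 2 of 5 fits, Lpl in 1 of 5, Fosb and Tgm2 in 3 of 5, and Saa3 in 3 of 4. Without 3-month replicate 1 the difference for Saa3 was 0.65 (edgeR adjusted p = 1), so its value rests on that pool.

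The haemoglobin genes Hbb-bs, Hba-a2 and Hba-a1 differed from monocytes by 3.86, 5.76 and 4.84, and passed in 4, 3 and 3 of 5 fits with a pool left out. Without 15-month replicate 2 the differences were -0.51, -0.30 and 1.94 (edgeR adjusted p = 0.976, 0.997 and 0.976). Without that pool the difference for Hbb-bt was 1.54 against Ccr2-zero macrophages and 4.89 against Cd209a cells, and that for Hba-a2 against Ccr2-zero macrophages was 3.22. A UMI of Hbb-bs was present in 8.89% to 15.8% of 15-month members and 92.9% to 97.1% of 3-month members. Its part in these differences was not tested.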

How the results depend on the processing

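Against 1 gene past the threshold for age, edgeR gave 4 with members of at most 30000 UMIs, 8 with at least 3 Ccr2 UMIs, 8 in thinned cells and 230 without a filter on low counts, and DESeq2 gave 11. Chosen after seeing the data, leaving out cycling cells gave 16, cells over 1% haemoglobin 9 and cells with markers of another lineage 8. Leaving out 1 pool gave 0 to 27. With the replicate number as a block the count was 0. Same-numbered pools had correlations of -0.054, -0.089 and 0.139, so the numbers did not pair the pools. The difference in share ran from -0.306 to 4.84 points with a pool left out; it was -0.051 without 15-month replicate 2 and -0.113 without 15-month replicate 3.

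The median log2 ratio of MHC class II genes was -0.0327 with at most 30000 UMIs, -0.0301 with at least 1 Ccr2 UMI, -0.0288 in thinned cells, and -0.28 to 0.0375 with a pool left out. That of senescence genes was 0.11 with at least 3 Ccr2 UMIs, 0.17 without cycling cells, 0.19 without a filter, and -0.17 to 0.24 with a pool left out. That of cell cycle genes was -0.14 in thinned cells, -0.12 without cycling cells and -0.0305 without cells of other lineages. Lysosomal genes gave 0.0637 at a hashtag ratio of 10, and matrix genes 0.0110 with at least 3 Ccr2 UMIs. Red cell genes gave -6.85 with at least 3 Ccr2 UMIs and -6.75 without cycling cells, and Pcna -0.0294 in thinned cells.

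With a pool left out, medians ran from -0.11 to 0.21 for MHC class I, 0.0587 to 0.30 for resident macrophage genes, -0.36 to 0.16 for chemokines, -0.57 to -0.31 for immediate early genes, 0.0686 to 0.26 for phagocytosis, -0.0306 to 0.47 for matrix genes, -0.0903 to 0.29 for alternative activation, -0.20 to 0.0164 for myeloid transcription factors, -6.48 to -0.20 for red cell genes and -0.0224 to 0.19 for cytokine receptors. Hbb-bt ran from -6.64 to 0.49. Interaction counts ran from 0 to 12 against Ccr2-zero macrophages, 2 to 17 against monocytes and 0 to 6 against Cd209a cells. The cause was not tested for any of these. Pools of 34 to 56 members limit the precision.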
